A study of Homo sapiens with 52 samples.

Results

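The 8 genes described here are the inhibitor of DNA binding genes ID1, ID2, ID3 and ID4 together with SMAD6, SMAD7, SMAD9 and BAMBI, 8 of the 63241 genes in a count table of human neurons. They were taken by matching the table's Ensembl identifiers to these symbols, and each symbol matched 1 row. ID1 and ID2 had been picked for differences between cell fractions and for knockdown effects that differed between fractions. The rule does not say which gene showed which. Their values in those comparisons are therefore given as a description, with no test. ID1 and ID2 were thus chosen by measured fraction differences and knockdown effects, and they are tested only where the 2 fractions are averaged. The other 6 genes were not picked by a measured value under that rule. All members were, however, chosen with earlier results of these data known. The tests of these 6 genes, and the averaged tests of ID1 and ID2, may therefore not be independent of those results.

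The neurons were i3Neurons, which are made from the induced pluripotent stem cell line WTC11 by switching on a neuronal transcription factor with doxycycline. They were moved to culture inserts with 1 µm pores on day 3 and harvested on day 17, so that cell bodies (soma) stayed above the membrane and neurites grew through it. Untreated neurons carried no guide RNA, with 4 soma and 4 neurite libraries. In the hnRNPA1 experiment, hnRNPA1 was knocked down by CRISPR interference, with 6 knockdown and 6 non-targeting guide libraries in each fraction. In the TDP43 experiment TDP43 was knocked down in the same way, with 5 neurite libraries for each guide, 5 non-targeting soma libraries and 4 analysed knockdown soma libraries. All groups shared the WTC11 background, the doxycycline induction and the inserts. The labels do not say whether numbered samples are separate cultures, so the p-values reflect only how these libraries vary, and that variation may be technical. Untreated libraries were made with version 2 of the RNA kit and all others with version 3, so kit and experiment cannot be told apart, and levels are set side by side across experiments without a test.

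ID proteins are helix-loop-helix proteins that lack a DNA-binding region. They pair with E proteins such as those encoded by TCF3, TCF4 and TCF12, and so keep these from activating genes together with neuronal factors such as NEUROD1. Bone morphogenetic proteins (BMPs) bind receptors that phosphorylate SMAD1, SMAD5 and SMAD9, and ID1, ID2 and ID3 are among the best known genes that this signal turns on. The same signal turns on its own inhibitors: SMAD6 and SMAD7 act inside the cell on the receptors and their SMADs, and BAMBI is a receptor-like membrane protein without kinase activity that blocks receptor complexes.

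The members lie on 8 chromosomes, with positions given on GRCh38 from GENCODE 29. ID1 (ENSG00000125968.9) spans chromosome 20 from 31605283 to 31606515 on the plus strand, and ID2 (ENSG00000115738.10) spans chromosome 2 from 8678845 to 8684453 on the plus strand. ID3 (ENSG00000117318.9) spans chromosome 1 from 23557918 to 23559794 on the minus strand, and ID4 (ENSG00000172201.12) spans chromosome 6 from 19837386 to 19840684 on the plus strand. SMAD6 (ENSG00000137834.15) spans chromosome 15 from 66702228 to 66782848 on the plus strand. SMAD7 (ENSG00000101665.10) spans chromosome 18 from 48919853 to 48952052 on the minus strand, and SMAD9 (ENSG00000120693.15) spans chromosome 13 from 36844831 to 36920765 on the minus strand. BAMBI (ENSG00000095739.11) spans chromosome 10 from 28677342 to 28682939 on the plus strand. An antisense gene overlaps ID2 (ID2-AS1) and another overlaps ID4 (AL022068.1). No source used here gives the strand setting of the counting, so reads of these pairs cannot be told apart.

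The stretches in front of ID1 and BAMBI are shown for the fraction differences below, and that of ID4 for its knockdown differences. ID2 and SMAD9 also changed with knockdown and are not shown. The stretches come from RefSeq (GRCh38.p14, plus strand, 5′ to 3′) and are cut where the GENCODE gene begins. Capitals mark GGCGCC, a GC-rich element that BMP-activated SMADs can bind, and CANNTG, the E-box that pairs of helix-loop-helix factors bind.
ID1, chr20:31605039-31605282: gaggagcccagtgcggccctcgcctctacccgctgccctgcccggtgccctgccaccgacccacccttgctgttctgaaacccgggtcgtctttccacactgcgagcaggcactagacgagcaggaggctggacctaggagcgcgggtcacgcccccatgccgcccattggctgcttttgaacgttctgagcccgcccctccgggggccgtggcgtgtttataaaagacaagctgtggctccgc
ID4, chr6:19837120-19837369: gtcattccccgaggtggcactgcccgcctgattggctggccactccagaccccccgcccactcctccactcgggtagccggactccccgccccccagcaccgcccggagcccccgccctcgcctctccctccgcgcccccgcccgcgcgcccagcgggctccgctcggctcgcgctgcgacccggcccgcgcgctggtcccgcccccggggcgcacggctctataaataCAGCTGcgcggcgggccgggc
BAMBI, chr10:28677271-28677341: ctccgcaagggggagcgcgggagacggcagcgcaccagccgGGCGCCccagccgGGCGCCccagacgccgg
Promoters were searched on both strands over the 250 bases before the RefSeq start. GGCGCC stood in 16.4% of 35116 promoters, and among the members BAMBI held 3 copies, 209, 196 and 181 bases before its start, of which 2 lie in the stretch shown. An E-box stood in 61.8% of promoters, and 4 members held 1 copy each (ID2, ID4, SMAD7 and SMAD9). TGACG, the core of a cyclic AMP response element, stood in 21.2% of promoters and among the members only in that of ID3. These matches describe the letters of the windows and are no measure of binding.

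Totals ran from 2541920 to 28902300 counts per library over 51 libraries, and 1 library of 541 counts (TDP43 knockdown soma 5) was not analysed. Levels are CPM (counts per 1000000), scaled by TMM within each experiment. HNRNPA1 fell on average over fractions by 1.46 ± 0.04 (SE) on the log2 scale in its knockdown, and TARDBP, which encodes TDP43, fell by 1.99 ± 0.05 in its own. All 12 neuronal markers passed the expression filter in each experiment. The share of counts from 7SL RNA genes was at most 3.29% in soma libraries, 5.55 to 18.5% in hnRNPA1 neurites and 5.65 to 45.7% in TDP43 neurites. TMM takes most genes as unchanged, and scaling by library size alone moved the median neurite-to-soma change of all genes from between −0.21 and −0.02 to between −1.43 and −0.40. For that reason each fraction difference below is given with its value under library-size scaling where the direction or the call differs.

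The members spanned a wide range of levels. Over the 51 libraries, ID4 had 90466 counts in total, ID2 13514, SMAD7 4768, SMAD9 2848, ID1 1693, BAMBI 1087, SMAD6 256 and ID3 151. Per kilobase of exon, ID4 came first and ID2 second in all 10 groups. In non-targeting neurites of the hnRNPA1 experiment, mean levels per kilobase were 73.7 CPM for ID4, 14.4 for ID2, 4.92 for ID1, 1.56 for SMAD7, 1.45 for BAMBI and 0.762 for SMAD9. There, the libraries of SMAD7 and BAMBI overlapped, and the others were separate from their neighbour in the order. ID1 came next per kilobase in the 4 neurite groups of the knockdown experiments, and SMAD7 came next in the 4 matching soma groups. In both TDP43 neurite groups the ranges of ID2 and ID1 overlapped. SMAD9 came next in untreated neurons, and its range overlapped that of SMAD7 in the neurites and not in the soma.

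**Figure D1:**
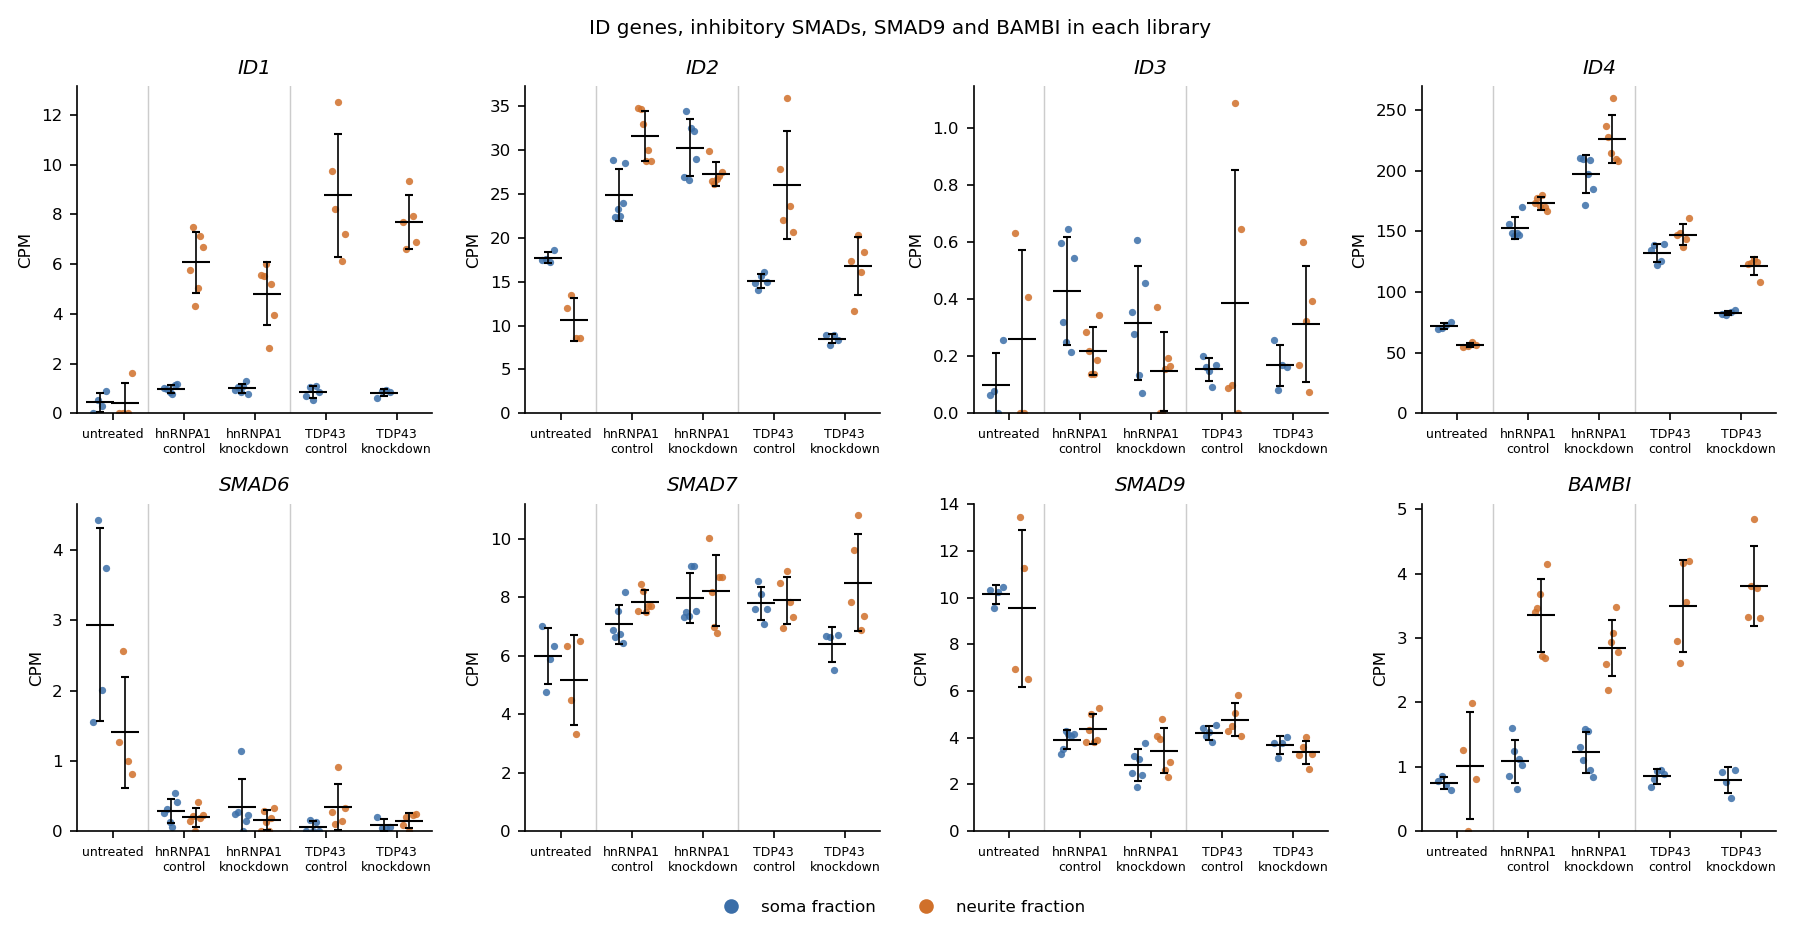
Level of each member (CPM, scaled by TMM within each experiment; 1 panel per gene, each with its own axis) in soma (blue) and neurite (orange) libraries of the 10 groups. Dots are libraries and black bars show mean ± SD. ID1 and BAMBI dots of neurites lie above all soma dots within each guide group of the knockdown experiments, and ID4 dots of the hnRNPA1 knockdown lie above, and those of the TDP43 knockdown below, their non-targeting dots in both fractions.

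ID1 levels were several times higher in neurites than in soma in every guide group of the knockdown experiments. In the hnRNPA1 experiment, non-targeting neurite libraries had ID1 levels of 4.31 to 7.48 CPM with a median of 6.22, and soma libraries 0.78 to 1.2 with a median of 0.99. With the hnRNPA1 knockdown, neurites had 2.62 to 6.01 CPM (median 5.38) and soma 0.759 to 1.31 (median 0.999). In TDP43 non-targeting samples the neurite libraries had 9.74, 8.24, 12.5, 6.13 and 7.21 CPM against 0.679, 1.07, 0.537, 1.09 and 0.849 in soma. Neurite and soma libraries did not overlap in any of these groups. With the TDP43 knockdown, neurites had 7.68, 6.62, 9.36, 7.93 and 6.87 CPM and soma 0.615, 0.893, 0.939 and 0.870, again without overlap.

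The fitted log2 neurite-to-soma differences of ID1 were 2.62 ± 0.18 (SE) and 2.25 ± 0.21 in hnRNPA1 non-targeting and knockdown samples, or 6.14-fold and 4.77-fold. In the TDP43 experiment they were 3.36 ± 0.19 and 3.18 ± 0.20, or 10.2-fold and 9.05-fold. With library-size scaling they were 2.26, 1.81, 2.74 and 2.65. The knockdown effect on ID1 in neurites minus that in soma was −0.36 ± 0.29 in the hnRNPA1 experiment. In the TDP43 experiment it lay between −0.20 and −0.09 in the 8 other ways of processing. ID1 counts behind these values were 17 to 109 per neurite library and 8 to 32 per soma library, so counting error is largest in soma. ID1 and ID2 were picked for effects of the kinds given here, so these values carry no test. The untreated neurons differed in level: 3 of 4 neurite libraries had no ID1 counts and the other had 4, or 1.63 CPM, while soma libraries had 0 to 7 counts and at most 0.905 CPM. A count of 0 in those neurite libraries allows up to 3 counts, which come to between 0.994 and 1.92 CPM in this group, so at this depth ID1 did not pass the filter and no ratio is given for untreated neurons alone.

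BAMBI, which limits BMP and TGF-beta receptor signalling at the membrane, was also higher in neurites in the knockdown experiments, and its fraction difference could be tested. Non-targeting neurites of the hnRNPA1 experiment had 2.68 to 4.14 CPM (median 3.44) and soma 0.65 to 1.6 (median 1.1). With the knockdown the ranges were 2.19 to 3.48 (median 2.87) and 0.84 to 1.6 (median 1.2). In the TDP43 experiment, non-targeting neurites had 2.95, 2.61, 4.17, 3.56 and 4.20 CPM against 0.679, 0.802, 0.928, 0.950 and 0.891 in soma. The fractions did not overlap in any of these 3 groups, nor with the TDP43 knockdown, where neurites had 3.33, 3.81, 4.84, 3.78 and 3.32 CPM and soma 0.923, 0.771, 0.512 and 0.951.

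The log2 neurite-to-soma difference of BAMBI was 1.6 ± 0.18 in hnRNPA1 non-targeting samples (edgeR quasi-likelihood test, Benjamini-Hochberg adjusted p = 6.13e-09) and 1.213 ± 0.21 with the knockdown (adjusted p = 1.86e-05). In the TDP43 experiment it was 2.00 ± 0.19 in non-targeting samples (adjusted p = 1.47e-09) and 2.21 ± 0.19 with the knockdown (adjusted p = 1.87e-10), or 4.01-fold and 4.62-fold. Across the other ways of processing (7 for hnRNPA1 and 8 for TDP43), these 4 differences stayed between 0.77 and 2.23 and past the threshold. BAMBI had 14 to 53 counts per neurite library in these groups. In untreated neurons BAMBI had 1.26, 0, 1.99 and 0.815 CPM in neurites and 0.779, 0.855, 0.717 and 0.646 in soma, which overlapped, and it did not pass the filter.

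ID2 levels changed order between fractions from one experiment to another. Untreated neurites had 12, 13.4, 8.61 and 8.56 CPM, all below the soma values of 17.5, 17.6, 17.2 and 18.6. Non-targeting neurites of the hnRNPA1 experiment had 28.7 to 34.8 CPM (median 31.5) and soma 22.4 to 28.9 (median 23.6), which overlapped slightly. TDP43 non-targeting neurites had 27.9, 22.0, 35.9, 23.7 and 20.7 CPM, all above soma at 14.9, 14.0, 15.6, 16.1 and 15.0. As a description, the log2 neurite-to-soma differences in these 3 sets were −0.79 ± 0.17, 0.36 ± 0.07 and 0.76 ± 0.11, and with library-size scaling −2.02, 0.01 and 0.13. With the hnRNPA1 knockdown the difference was −0.16 ± 0.08 (library sizes −0.60) and with the TDP43 knockdown 1.00 ± 0.13 (library sizes 0.47).

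ID4, the most abundant member and the ID protein best known from neural progenitors and astrocytes, showed fraction differences whose size and direction depended on the scaling. In untreated neurons ID4 was lower in neurites (54.4, 55.1, 58.3 and 55.8 CPM) than in soma (69.7, 70.3, 72.5 and 75.1), without overlap, by −0.36 ± 0.09 (adjusted p = 0.0032, edgeR), and by −1.59 with library sizes. The call was lost with a filter at a mean of 1 CPM (−0.28, adjusted p = 0.061) and without neurite library 4, 5 or 7 (−0.26, −0.27 and −0.28). ID4 was higher in neurites with TMM and lower with library sizes in hnRNPA1 non-targeting samples (0.18 ± 0.06, adjusted p = 0.0093; library sizes −0.17), hnRNPA1 knockdown samples (0.20 ± 0.06, 0.0064; −0.24) and TDP43 non-targeting samples (0.16 ± 0.05, 0.019; −0.45). In those 3 groups the fractions overlapped, and without the filter none of these calls was kept. In TDP43 non-targeting samples the call was also lost without neurite library 6 (0.13, adjusted p = 0.070) or soma library 4 or 5 (0.13 and 0.14). With the TDP43 knockdown, neurites had 123, 124, 127, 125 and 108 CPM and soma 81.8, 81.2, 83.1 and 84.8, without overlap, a difference of 0.55 ± 0.06 (adjusted p = 7.96e-09) that was 0.0076 (adjusted p = 0.96) with library sizes.

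With TMM, 1 fraction difference of a SMAD member was called, and library sizes called more of them, all lower in neurites. SMAD7 levels lay between 3.31 and 10.8 CPM in all libraries, and it was called with the TDP43 knockdown, at 0.35 ± 0.12 (adjusted p = 0.011, edgeR; −0.17 with library sizes, so the direction flipped, as it did for the uncalled SMAD7 differences of the 3 other guide groups). With library sizes SMAD7 was called at −1.47 in untreated neurons (adjusted p = 8.42e-05; −0.25 and 0.45 with TMM), −0.42 in hnRNPA1 knockdown samples (9.45e-04) and −0.60 in TDP43 non-targeting samples (1.84e-04). SMAD9, which carries the BMP signal but weakly compared with SMAD1 and SMAD5, was not called between fractions in any group, with differences from −0.18 to 0.30. With library sizes the SMAD9 differences were all below 0 and 3 were called, at −0.46 and −0.70 in the TDP43 experiment and −1.32 in untreated neurons. SMAD6 passed the filter of a single experiment only in untreated neurons, with 1.26, 2.56, 0.994 and 0.815 CPM in neurites and 1.56, 4.43, 2.01 and 3.75 in soma. It passed through soma, where it was higher (24 to 57 counts per library against 2 to 4 in neurites), so its values are a description. Its difference was −1.14 ± 0.51, −1.12 with the sample number as a replicate block and −2.37 with library sizes. ID3 had at most 10 counts in any library and passed the filter in no experiment.

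**Figure D2:**
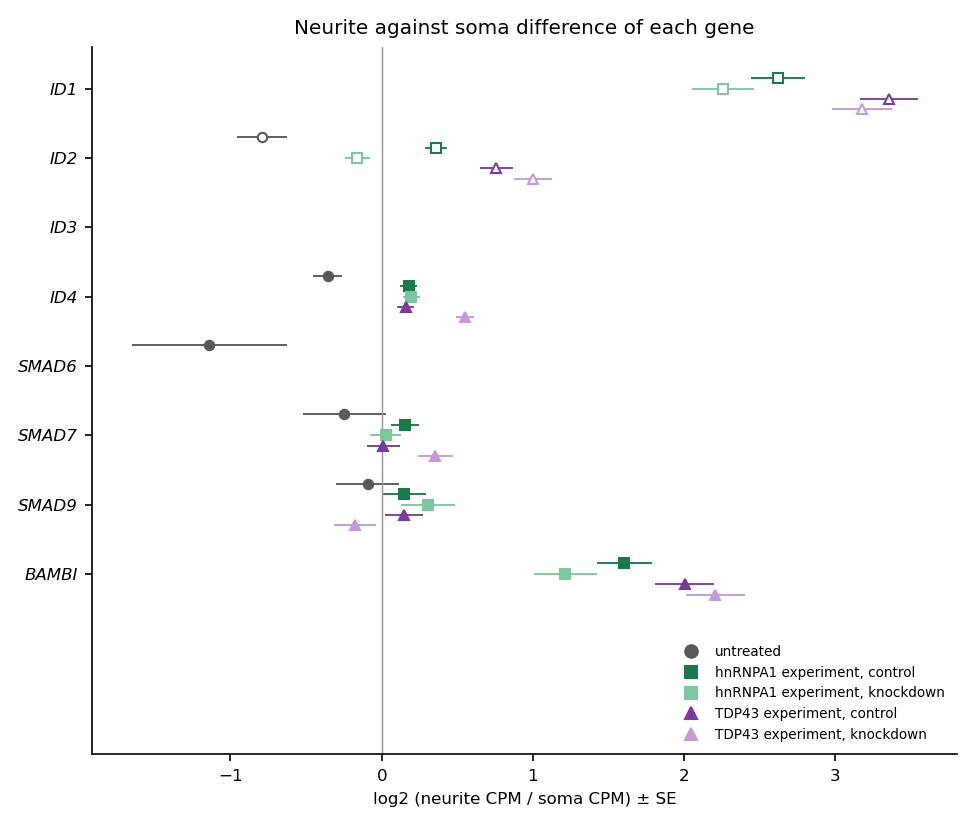
Log2 neurite-to-soma difference (point) with its SE (bar) for each member that passed the filter, in the 5 fraction comparisons, with TMM scaling. Filled symbols were tested, except SMAD6 in untreated neurons. That value and the open symbols (ID1, ID2) are a description. ID1 and BAMBI lie above 1 in all 4 guide groups, the other members lie between −1.14 and 1.00, and with library-size scaling ID4 changes direction in 3 guide groups, SMAD7 in 4 and SMAD9 in 3.

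Counts of called members are read against the share of all genes called. In untreated neurons 1 of 4 members (ID4, lower) was called, and the 4 include SMAD6, which is described only. There 56.5% of 18556 genes were called and 27.8% lower. In hnRNPA1 non-targeting samples 2 of 4 tested members were higher in neurites (ID4 and BAMBI), where 48.4% of 19812 genes were called in either direction and 23.5% higher. In hnRNPA1 knockdown samples the same 2 members were higher, at 35.8% of genes called and 19.4% higher. In TDP43 non-targeting samples 2 of 4 were higher (ID4 and BAMBI), at 46.5% called and 24.1% higher of 22014 genes. In TDP43 knockdown samples 3 of 4 were higher (ID4, SMAD7 and BAMBI), at 57.7% called and 28.7% higher. With so few members tested, these counts are not read as a result about the members as a group.

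Other genes moved between the fractions beside ID1 and BAMBI. Immediate early genes, which neurons turn on within minutes of stimulation, were higher in neurites for 12 of 20 tested in hnRNPA1 non-targeting samples and lower for 2, with GADD45B at 4.26 ± 0.18, NPAS4 at 4.00 ± 0.22 and KLF4 at 3.37 ± 0.38. Their summed level was 538 to 810 CPM in those neurites and 289 to 393 in soma. In TDP43 non-targeting samples 14 of 21 were higher and 3 lower, with sums of 473 to 605 against 274 to 328 CPM. In untreated neurons none of 13 was higher and 9 were lower, with sums of 153 to 165 against 209 to 252 CPM. With library sizes 9 of 20 and 9 of 21 were higher in the 2 non-targeting sets. Among the other BMP targets, MSX1 was higher in neurites of both non-targeting sets (1.1 ± 0.37 and 1.49 ± 0.33; 0.75 with an adjusted p of 0.070 in the first with library sizes), ATOH8 in that of the TDP43 experiment (2.14 ± 0.29), and the Notch and BMP target HEY1 was lower in both (−0.25 ± 0.08 and −0.21 ± 0.08).

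The summed levels of cycling, progenitor and endothelial markers were higher in neurites of both non-targeting sets, and those of glial and mesenchymal markers were lower. Cycling-cell markers were higher in neurites for 8 of 8 tested in hnRNPA1 non-targeting samples (summed 42.1 to 52.1 against 22.7 to 26.4 CPM) and for 9 of 10 in TDP43 ones (38.9 to 47.3 against 19.7 to 20.5). Neural progenitor markers, of which the defining gene SOX1 was at 1.34 ± 0.14 in the first set, were higher for 7 of 11 and 5 of 11 with TMM and lower for 1 in each, and with library sizes 4 were higher and 2 lower, then 5 higher and 5 lower. Their sums were 467 to 575 against 256 to 279 CPM, and 367 to 432 against 193 to 245. Of 12 endothelial markers only 3 and 4 passed the filter, and 2 were higher in each set, with PECAM1 at 3.97 ± 0.30 and 5.22 ± 0.24. A marker high in neurites alone can pass the filter, so these counts and values are a description. The sums over all 12 were 13.1 to 18.1 against 4.17 to 11.3 CPM and 14.4 to 21.3 against 3.12 to 5.08. In untreated neurons, where ID1 was at most 1.63 CPM, cycling markers were higher for 6 of 10 with TMM (1 of 10 with library sizes, with 3 lower). There 3 of 8 endothelial markers were lower and none higher. Cycling sums in untreated neurons were 94.9 to 108 CPM in neurites against 40.6 to 65.1 in soma. Progenitor sums were 250 to 294 against 104 to 113 CPM, and endothelial sums 15.2 to 25.5 against 26.7 to 50.1. Astrocyte and oligodendrocyte markers were higher for 1 of 5 and 0 of 5 and lower for 2 in each set, with sums of 25.5 to 30.2 CPM in neurites against 34.0 to 41.1 in soma, without overlap, and 24.9 to 29.1 against 27.7 to 33.2. Mesenchymal markers were higher for 2 of 6 in each set and lower for 1 and 2, with overlapping sums (medians 71.7 against 91.7 CPM, and 69.0 against 75.8). No progenitor or endothelial marker was at 0 in the non-targeting groups. Whether cells of these types were present, and their part in the ID1 and BAMBI levels, was not tested. In bulk samples such as these more cells of a type and more RNA per cell cannot be told apart.

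The extracellular side of the pathway was mixed between fractions. The BMP2 ligand gene was lower in neurites of both non-targeting sets (−0.77 ± 0.13 and −0.88 ± 0.12). FST, encoding the activin and BMP binder follistatin, was higher (3.29 ± 0.37 and 2.76 ± 0.51), and CHRD, encoding the BMP binder chordin, was lower (−0.77 ± 0.09 and −0.95 ± 0.11). These 3 genes kept their direction with library sizes. Of the receptor genes 3 of 8 were higher and 2 lower in hnRNPA1 non-targeting samples, and 2 of 8 were higher and 2 lower in TDP43 ones, whereas with library sizes none was higher and 4 and 7 were lower.

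The knockdowns were compared with their non-targeting controls within each fraction, and averaged over the 2 fractions. In the hnRNPA1 experiment ID4 was the member that rose. Soma libraries had 172 to 210.0 CPM (median 203) with the knockdown and 146 to 169.8 (median 148) without, and neurites had 208 to 259 (median 221) against 166 to 180.1 (median 172). The groups did not overlap in either fraction. The rise was 0.37 ± 0.06 in soma (adjusted p = 3.14e-05, edgeR), 0.39 ± 0.06 in neurites (adjusted p = 1.29e-05) and 0.38 ± 0.04 averaged (adjusted p = 1.38e-08), or 1.3-fold, and the averaged value stayed between 0.28 and 0.38 in the 7 other ways of processing. Library-size scaling shifted the averaged change of all genes by −0.10, and ID4 stayed on the same side. The interaction of knockdown and fraction was 0.02 ± 0.08 (adjusted p = 0.97). Summed neural progenitor markers were also higher with this knockdown, at 334 to 375 against 256 to 279 CPM in soma and 579 to 733 against 467 to 575 in neurites, without overlap. Averaged over fractions 4 of 11 progenitor markers rose, led by PAX6 at 1.221 ± 0.08, and 1 fell (library sizes 4 and 2). Astrocyte and oligodendrocyte sums overlapped between the guides in both fractions, with an averaged median of 0.01 over the 5 tested markers. Whether cells of these types were present, and their part in the ID4 levels, was not tested.

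SMAD9 fell with the hnRNPA1 knockdown on average over the fractions, by 0.39 ± 0.11 on the log2 scale (adjusted p = 0.011, edgeR). Soma levels were 1.9 to 3.79 CPM (median 2.80) with the knockdown and 3.32 to 4.30 (median 4.11) without, and neurite levels were 2.32 to 4.78 (median 3.44) against 3.81 to 5.30 (median 4.11), so the groups overlapped in both fractions. The soma difference alone was −0.47 ± 0.15 (adjusted p = 0.048) and was lost in 15 of 24 fits that left out 1 library, with a highest adjusted p of 0.133 without knockdown soma library 3. The neurite difference was −0.31 ± 0.17 (adjusted p = 0.23).

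The other members were not called in the hnRNPA1 knockdown. Averaged over fractions ID1 was at −0.13 ± 0.14 (adjusted p = 0.54, edgeR), ID2 at 0.04 ± 0.05 (0.69), SMAD7 at 0.11 ± 0.07 (0.24) and BAMBI at −0.05 ± 0.14 (0.83). ID2 had opposite signs in the 2 fractions: soma had 26.6 to 34.5 CPM (median 30.6) against 22.4 to 28.9 (median 23.6), and neurites 26.1 to 29.9 (median 26.9) against 28.7 to 34.8 (median 31.5), with overlap in both. As a description, these differences were 0.29 ± 0.07 and −0.22 ± 0.08. The interaction, a kind of effect for which ID1 and ID2 were picked, was −0.52 ± 0.11. In all, 2 of 6 tested members were called in the averaged comparison, ID4 higher and SMAD9 lower, where 23.6% of genes were called, 12.9% higher and 10.8% lower. In soma 2 of 4 were called, 1 each way (7.09% of genes, 3.79% higher and 3.3% lower), in neurites 1 of 4, higher (16.2% and 8.96%) and in the interaction 0 of 4 (0.177%, 35 genes, edgeR), where 0 of the 4 had an unadjusted p under 0.05, and DESeq2 and limma-voom also called 0.

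In the TDP43 experiment ID2, ID4 and SMAD9 fell, and the ranges of ID2 and ID4 did not overlap those of the controls in either fraction. ID2 soma libraries had 8.92, 7.83, 8.96 and 8.35 CPM with the knockdown, all below the 14.0 to 16.1 CPM of non-targeting soma given above. ID2 neurite libraries had 17.4, 11.6, 20.3, 16.2 and 18.4 CPM, also all below the non-targeting 20.7 to 35.9. The described differences were −0.83 ± 0.12 in soma and −0.59 ± 0.12 in neurites. Averaged over fractions, a comparison that the rule for ID2 does not name, ID2 fell by 0.71 ± 0.08 on the log2 scale (adjusted p = 1.13e-07, edgeR), to 0.610-fold. The averaged value stayed between −0.80 and −0.63 in the 8 other ways of processing. ID2 was chosen with earlier results known, so this test may not be independent of them.

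ID4 fell more in soma than in neurites of the TDP43 knockdown. Soma libraries had 81.8, 81.2, 83.1 and 84.8 CPM against 135, 139, 122, 126 and 139, a difference of −0.67 ± 0.06 (adjusted p = 6.09e-10, edgeR). Neurite libraries had 123, 124, 127, 125 and 108 CPM against 147, 148, 137, 144 and 161, a difference of −0.28 ± 0.06 (adjusted p = 4.47e-04), and neither fraction overlapped. The interaction was 0.39 ± 0.08 (adjusted p = 0.0022). With library sizes the neurite value was −0.22 (adjusted p = 0.33) and the interaction 0.46 (adjusted p = 0.25), so both calls ended there. TARDBP itself was also lower by more in soma (−2.50 ± 0.07) than in neurites (−1.48 ± 0.06). Its interaction was 1.02 ± 0.09 (adjusted p = 4.07e-08, edgeR), and the part of this in the ID4 interaction was not tested. The averaged fall of ID4 was 0.48 ± 0.04 on the log2 scale (adjusted p = 2.62e-10), and this value stayed between −0.51 and −0.45. Astrocyte and oligodendrocyte sums were also lower with this knockdown, at 19.5 to 23.8 against 27.7 to 33.2 CPM in soma and 20.1 to 23.6 against 24.9 to 29.1 in neurites, without overlap. In the average 2 of 5 of these markers fell, SOX9 by 0.80 ± 0.11 and MBP by 0.33 ± 0.07 on the log2 scale, and none rose. Progenitor sums were higher instead, at 252 to 283 against 193 to 245 CPM in soma and 453 to 548 against 367 to 432 in neurites, with 4 of 11 markers higher and 2 lower. Whether cells of these types were present, and their part in the ID2, ID4 and SMAD9 levels, was not tested.

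SMAD9 fell with the TDP43 knockdown by 0.36 ± 0.09 averaged over fractions (adjusted p = 0.0045, edgeR; −0.32 and 0.071 with library sizes). In neurites the libraries had 3.24, 3.61, 4.04, 2.64 and 3.32 CPM against 4.29, 4.52, 5.08, 5.84 and 4.09, just without overlap, a difference of −0.52 ± 0.15 (adjusted p = 0.011). That call ended with library sizes (−0.44, adjusted p = 0.13), without the 3 neurite libraries richest in 7SL (non-targeting 4 and 5, knockdown 2; −0.42, 0.080) and without knockdown neurite library 4 (−0.42, 0.054). In soma the difference was −0.20 ± 0.11 (adjusted p = 0.27), with 3.79, 3.12, 3.76 and 4.02 CPM against 4.43, 4.07, 4.25, 3.80 and 4.54.

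SMAD7 in TDP43 knockdown soma had 6.66, 6.65, 5.51 and 6.71 CPM, all below the non-targeting 7.59, 8.56, 8.10, 7.10 and 7.60. Its difference of −0.28 ± 0.10 was not called by edgeR (adjusted p = 0.057), and it was called by limma-voom (adjusted p = 0.038) and without those 3 neurite libraries (adjusted p = 0.031), and without non-targeting neurite 4 alone (0.046) or knockdown neurite 3 alone (0.039). In neurites it was 0.06 ± 0.12 (adjusted p = 0.77). ID1 and BAMBI averaged −0.08 ± 0.15 (adjusted p = 0.72) and 0.02 ± 0.14 (0.94). In all 3 of 6 tested members were lower in the averaged comparison and none higher, where 29.3% of genes were called and 13.8% lower. In soma 1 of 4 was lower (18.9% called, 9.53% lower), in neurites 2 of 4 (24.8% and 10.9%), and in the interaction 1 of 4 was higher (10.5% called, 5.81% higher).

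**Figure D3:**
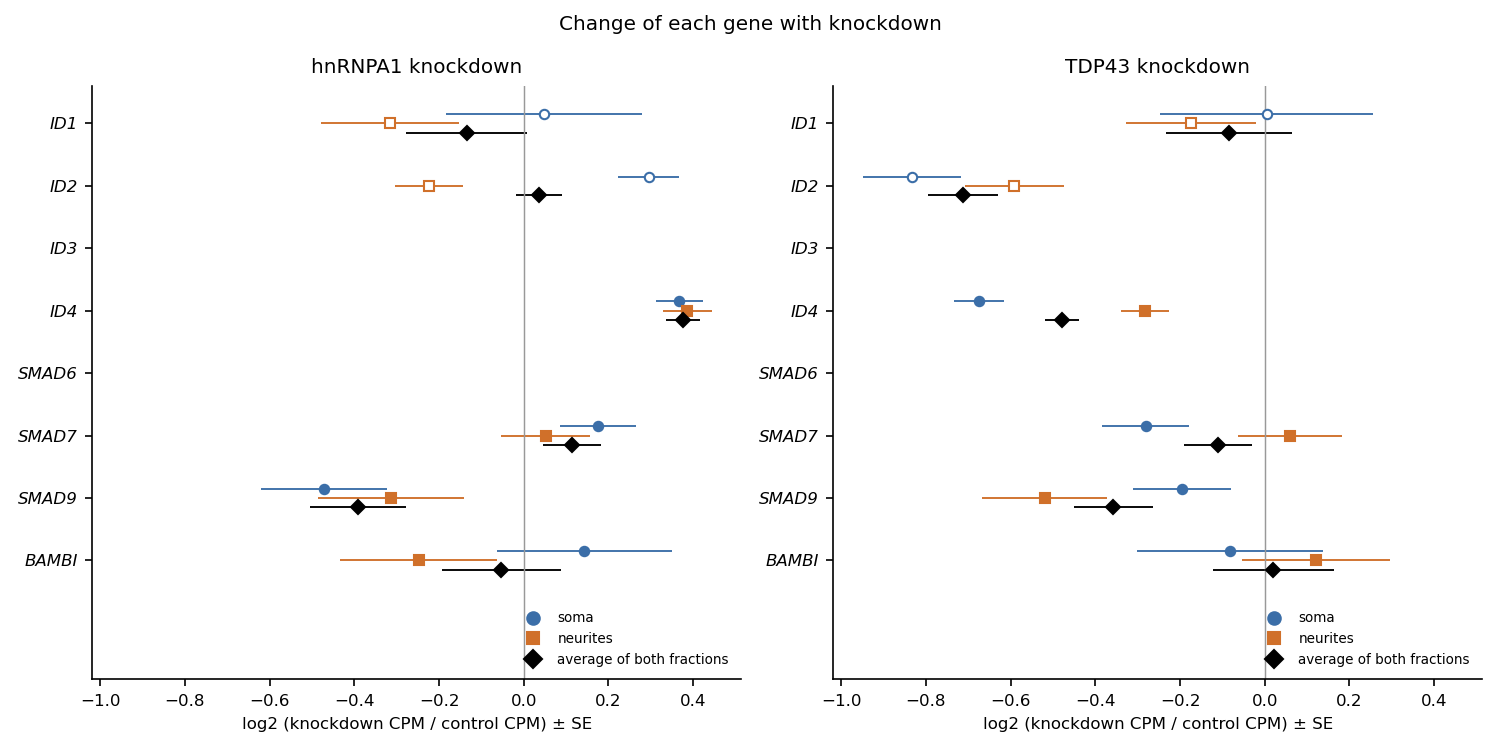
Log2 difference between knockdown and non-targeting libraries (point) with its SE (bar) in soma, in neurites and averaged over both, for each member that passed the filter, in the hnRNPA1 (left) and TDP43 (right) experiments. Open symbols (ID1, ID2 within a fraction) are a description. ID4 lies between 0.37 and 0.39 on the left and between −0.67 and −0.28 on the right, and ID2 lies below −0.5 in both fractions on the right only.

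The 2 knockdowns were set against each other in 1 fit of all libraries. The averaged effect of the hnRNPA1 knockdown minus that of the TDP43 knockdown was 0.83 ± 0.06 for ID4 (adjusted p = 4.57e-17, edgeR) and 0.72 ± 0.10 for ID2 (adjusted p = 5.70e-08). For the other 5 members it was between −0.10 and 0.25 and was not called, including SMAD9 at −0.06 ± 0.15 (adjusted p = 0.90). SMAD6, among these 5, entered the fit through the untreated groups. It had at most 15 counts per library in the groups compared here, so its value is a description. So 2 of 7 members, counting SMAD6, were higher, where 15.5% of 30081 genes were called and 6.24% higher.

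The antisense neighbours of ID2 and ID4 were read in the same fits, since their reads could be shared with the members. ID2-AS1, with group means of 1.2 to 6.8 CPM, differed by −0.28 ± 0.15 with the TDP43 knockdown averaged over fractions (adjusted p = 0.15, edgeR). Between fractions, ID2-AS1 was higher in neurites of hnRNPA1 non-targeting samples (0.50 ± 0.15, adjusted p = 0.0075, edgeR). It was also higher in TDP43 non-targeting (1.07 ± 0.20, 6.54e-05) and knockdown samples (1.197 ± 0.21, 2.92e-05). It was not called in untreated neurons (−0.56 ± 0.28, 0.095) or with the hnRNPA1 knockdown (0.20 ± 0.17, 0.39). Its neurite-to-soma ratio, untreated minus controls, was −1.31 for hnRNPA1 (2.25e-04) and −1.81 for TDP43 (2.02e-06). AL022068.1, with group means of 1.86 to 8.54 CPM, fell by 0.66 ± 0.12 on the log2 scale with the TDP43 knockdown (adjusted p = 9.95e-05). It was at 0.33 ± 0.13 with the hnRNPA1 knockdown (adjusted p = 0.072). Of the members' values, those of 26 of 51 libraries for ID2 and 20 for ID4 were not whole numbers. The same held in 7 libraries for SMAD7, 4 for SMAD9 and 1 for ID3, and all ID1, SMAD6 and BAMBI values were whole. No annotated gene overlaps SMAD7 or ID3. Genes in introns on the same strand overlap SMAD9 (SMAD9-IT1) and SMAD6 (AC013564.1). How far shared reads enter ID2 and ID4 was not tested.

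Untreated neurons had a lower neurite-to-soma ratio of ID4 than both non-targeting sets. The ratio of ID4 was lower by −0.80 ± 0.11 against hnRNPA1 controls (adjusted p = 3.90e-09, edgeR) and −0.70 ± 0.11 against TDP43 controls (adjusted p = 3.14e-07), where the median over all genes was −0.42 and −0.49. For SMAD7 the ratio was called lower against hnRNPA1 controls (−0.67 ± 0.24, adjusted p = 0.019, edgeR; −0.49 and 0.15 with DESeq2; lost without untreated neurite library 6, −0.47, or soma library 4, −0.58). Against TDP43 controls SMAD7 was at −0.45 ± 0.24 (adjusted p = 0.13; −0.86 and 0.0039 with library sizes). The SMAD7 ratios of the 2 control sets differed by 0.22 ± 0.15 (adjusted p = 0.44).

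BAMBI and SMAD6 passed the filter of this fit through the groups where they were higher, BAMBI through the guide groups and SMAD6 through the untreated ones, so their values are a description. BAMBI was at −1.27 ± 0.48 and −1.59 ± 0.49 against the hnRNPA1 and TDP43 controls, resting on 0 to 6 counts per untreated neurite library. SMAD6 was at −0.74 ± 0.98 and −3.64 ± 1.03, the second resting on 0 to 3 counts per TDP43 non-targeting soma library. ID2 was described at −1.42 and −1.74, and no ratio is given for ID1, which had counts in 1 untreated neurite library. Of the other 3 members, 2 were lower against hnRNPA1 controls (ID4 and SMAD7) and 1 against TDP43 controls (ID4), where 37.5% and 38.2% of genes were called and 24.4% and 24.7% were lower. Between the 2 non-targeting sets 0 of 5, counting BAMBI and SMAD6, were called by edgeR (4.8% of genes), and 1 had an unadjusted p under 0.05. There DESeq2 called 0 and limma-voom called 1 (SMAD6, −3.14, adjusted p = 0.044), which is described only. Kit version and experiment cannot be told apart in these ratios.

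The other genes of the pathway were counted in the averaged knockdown comparisons. Beside the counts here and in the next 2 paragraphs stand the shares of all genes called. These were 29.3% with the TDP43 knockdown (13.8% lower) and 23.6% with the hnRNPA1 knockdown (12.9% higher and 10.8% lower). In the TDP43 knockdown 2 of 8 tested BMP ligand genes fell and none rose: BMP4 by 1.06 ± 0.22 (adjusted p = 4.31e-04, edgeR) and BMP2 by 0.66 ± 0.09 (adjusted p = 1.83e-06), with a list median of −0.27 against −0.02 over all genes. Receptor genes rose for 5 of 8 with none lower, led by ACVR2B at 0.44 ± 0.05 and the co-receptors RGMA at 0.37 ± 0.05 and RGMB at 0.24 ± 0.05 (3 of 8 with library sizes). Among the secreted antagonists FSTL1 rose by 0.48 ± 0.06 and NBL1 by 0.32 ± 0.09. The SMAD corepressor gene SKIL fell by 0.29 ± 0.05 on the log2 scale, the target HEY1 rose by 0.43 ± 0.06, and SMAD3 of the TGF-beta branch rose by 0.68 ± 0.08. With library sizes SKIL kept its direction and was not called (−0.26, adjusted p = 0.076).

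With the hnRNPA1 knockdown 0 of 7 ligand genes were called by edgeR, 3 had an unadjusted p under 0.05, and 2 were lower with library sizes. Receptor genes rose for 2 of 8 (ACVR1 0.17 ± 0.05, RGMB 0.12 ± 0.04) and fell for 1 (ACVR2A, −0.13 ± 0.04), and with library sizes neither rise was called. FSTL1, a secreted glycoprotein that binds BMPs, fell by 0.75 ± 0.08 on the log2 scale, and the difference between the knockdowns was −1.25 ± 0.11 (adjusted p = 5.67e-15, edgeR). TGIF1, a SMAD corepressor, rose by 0.91 ± 0.20, and the BMP target ATOH8 by 0.79 ± 0.25. All 3 TGF-beta ligand genes rose (TGFB2 1.07 ± 0.18, TGFB1 0.70 ± 0.07, TGFB3 0.52 ± 0.09) among 4 higher and 1 lower of 9 in that branch.

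The helix-loop-helix factors, the partners and counterparts of ID proteins, rose for 8 of 13 tested with the hnRNPA1 knockdown and none fell, with a median of 0.27 against 0.00 over all genes (7 of 13 with library sizes). NEUROD1 was at 0.80 ± 0.08, NEUROD4 at 0.79 ± 0.07 and NEUROD2 at 0.49 ± 0.06. With the TDP43 knockdown 3 of 13 rose, NEUROD1 by 1.112 ± 0.08, NHLH1 by 0.56 ± 0.05 and the E protein gene TCF4 by 0.23 ± 0.05, and none fell. NEUROD1 rose in both knockdowns, while ID4 rose with the hnRNPA1 knockdown and ID2 and ID4 fell with the TDP43 knockdown. A link between these levels was not tested. Immediate early genes rose for 8 of 20 and fell for 1 with the hnRNPA1 knockdown (median 0.25; 4 and 1 with library sizes). They rose for 4 of 21 and fell for 10 with the TDP43 knockdown (median −0.12; 4 and 7 with library sizes), where EGR1 was at −1.0 ± 0.16. ARC was at 0.51 ± 0.08 with the hnRNPA1 knockdown and −0.61 ± 0.10 with the TDP43 knockdown, a difference of 1.09 ± 0.13 (adjusted p = 1.74e-09).

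**Figure D4:**
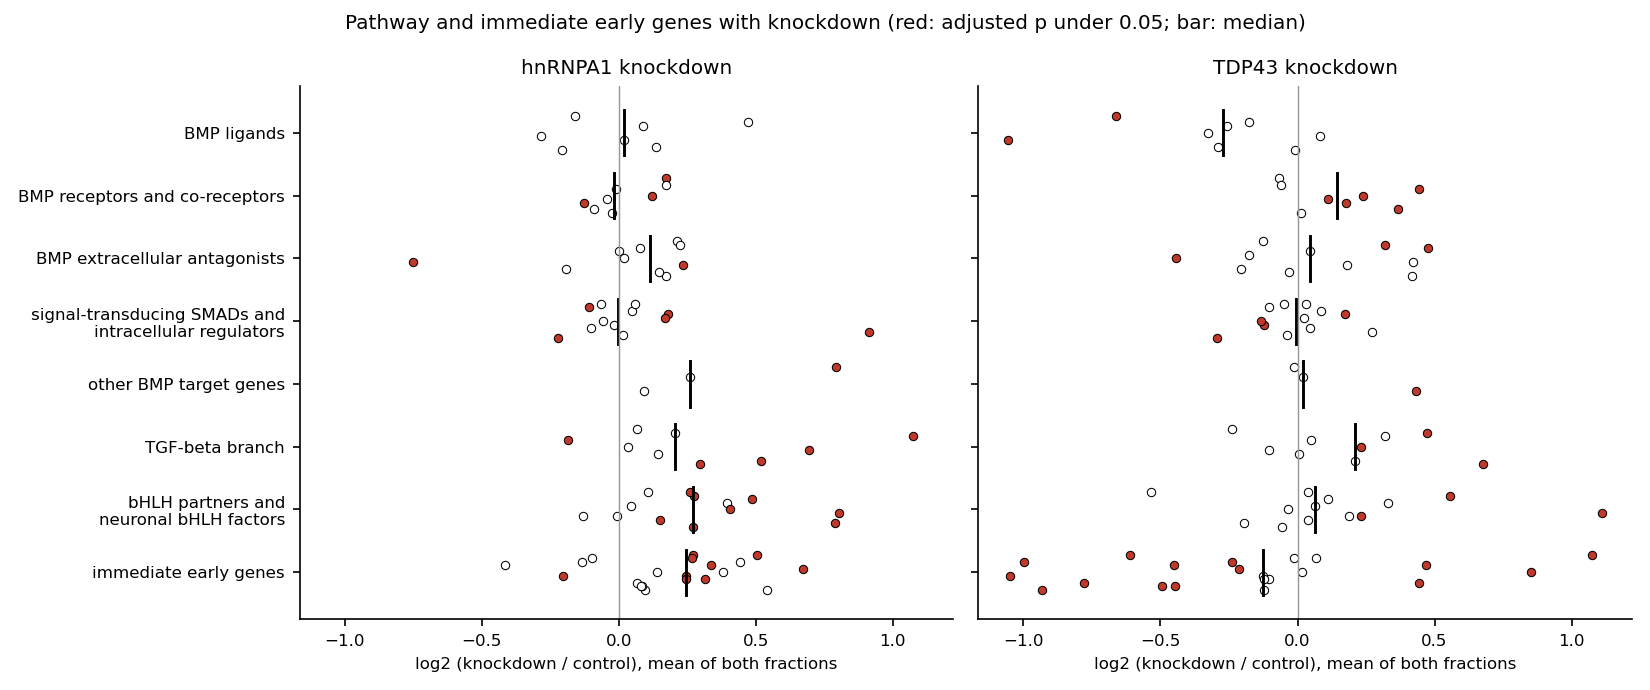
Log2 difference between knockdown and non-targeting libraries, averaged over fractions, for each tested gene (dot) of the pathway, helix-loop-helix and immediate early lists in the hnRNPA1 (left) and TDP43 (right) experiments. Red dots have an adjusted p under 0.05 (edgeR) and bars show list medians. The helix-loop-helix list has 8 and 3 red dots, all above 0, and the BMP ligand list has 0 red dots on the left and 2 below 0 on the right.

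The genes most like each member were taken by Pearson correlation of log2(CPM + 0.5) over the 51 libraries, each gene centred on its mean in each experiment, among 18430 genes. The libraries share fractions and scaling, so these values are a description. ID1 was most like GADD45G (r = 0.95), ZBTB2 (0.94), FAM166A (0.94), SNAI1 (0.94) and KLF10 (0.94). BAMBI was most like CDKN1A (0.92), HLA-B (0.89), ITGB4 (0.89), ERBB3 (0.88) and THRB (0.88), and ID1 and BAMBI had r = 0.84 with each other. ID4 was most like SCG2 (0.85), NWD2 (0.80), ARC (0.80), MAX (0.78) and CSRNP1 (0.78), and ID2 like RASGEF1B (0.83), MAFF (0.77), ADRA1A (0.76), ERO1B (0.76) and GGCX (0.75). ID2 and ID4 had r = 0.67. The genes most like SMAD7 and SMAD9 were GET4 (0.61) and IRX3 (0.61), and SMAD9 had at most 0.26 with any other member.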

How the data were processed

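Neurite and soma fractions of i3Neurons were sequenced as total RNA, in 52 libraries of 10 groups taken from the sample titles, each made from 10 ng of RNA. The authors deposited 1 table of expected counts per gene. The submitters' processing notes name STAR 2.7.11b, featureCounts, Subread 2.0.6 and the build hg38. The sources used here do not name the annotation, the strand setting or the handling of reads with several matches. Of nonzero deposited counts, 81.1% are whole (within 0.005). Counts were rounded for the tests. The 8 members were matched by Ensembl identifier. The members and gene lists were chosen with earlier results of these data known. Some results on single listed genes are not reported here.

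Each experiment was fitted alone, and all 10 groups jointly for comparisons between experiments, with edgeR 4.0.16 in R 4.3.3 (TMM, filterByExpr, 1 coefficient per group, quasi-likelihood tests, Benjamini-Hochberg adjustment over all genes, threshold 0.05), after a test on simulated data. Genes named outside the members were at most the 3 largest called changes of a list, the markers of a list at 0, and the 5 genes most correlated with a member, plus ARC, FSTL1, MSX1 and HEY1, named after their values were seen wherever they stand outside that rule. Levels per kilobase used the joined exons of GENCODE 29. CPM is a share of the RNA of a fraction, not an amount per neuron. The alternatives were DESeq2 1.42.0, library sizes in place of TMM, limma-voom (limma 3.58.1), no filter beyond 1 count, a filter at a mean of 1 CPM, a replicate block, 7SL genes left out before scaling, and leaving out each library in turn. Leaving out 3 TDP43 neurite libraries rich in 7SL was chosen after seeing the data. Same-numbered samples were taken as paired where every pair's deviations correlated above 0.1, which held for the TDP43 knockdown fractions (correlations 0.11 to 0.24) and for TDP43 soma control and knockdown (0.16 to 0.26), and there the block changed no member's call. The 4 untreated pairs were all positive but not all above that limit (0.089 to 0.14). Libraries of a group were compared in 108 pairs, and none was a copy. In counts of 0 the floor is 3 counts, which covers counting error only.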

Additional observations from a re-analysis of the deposited data

Results flagged for a closer look

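In 6 of 80 sets of a member's libraries in a group, 1 library stood far from the others (Dixon's test, which flags about 1 in 20 groups by chance). ID1 was at 1.63 CPM in untreated neurite library 7 and at 0 in the other 3. ID4 was lowest, at 108 CPM, in TDP43 knockdown neurite library 5. SMAD7 was lowest, at 5.51 CPM, in TDP43 knockdown soma library 3. SMAD6 was highest in hnRNPA1 knockdown soma library 3 (1.139 CPM), TDP43 non-targeting neurite library 4 (0.907 CPM) and TDP43 knockdown soma library 1 (0.205 CPM), the last 2 on at most 5 counts.

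The test of the difference between groups passed the threshold for these effects. The TDP43 knockdown effect on ID4 differed between fractions by 0.39 on the log2 scale. The neurite-to-soma ratio of untreated neurons minus that of hnRNPA1 non-targeting samples was −0.80 for ID4, −0.67 for SMAD7 and −1.27 for BAMBI. Against TDP43 non-targeting samples it was −0.70 for ID4, −3.64 for SMAD6 and −1.59 for BAMBI. BAMBI and SMAD6 entered that fit through the groups where they were higher, so their values are a description and support nothing. The averaged hnRNPA1 knockdown effect exceeded that of TDP43 by 0.72 for ID2 and 0.83 for ID4.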

How the results depend on the processing

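Of 793 log2 differences that 105 member results took under the alternatives, 15 lost a call, 11 gained one, 7 changed sign with a call under at least 1 scaling, and 16, all of ID1 or ID2 where they carry no test, moved by more than the SD between libraries. The other 744 did none of these. Library sizes in place of TMM reversed the neurite-to-soma differences of ID4 in hnRNPA1 non-targeting (−0.17), hnRNPA1 knockdown (−0.24) and TDP43 non-targeting samples (−0.45), of SMAD7 in hnRNPA1 knockdown (−0.42), TDP43 non-targeting (−0.60) and TDP43 knockdown samples (−0.17), and of SMAD9 in TDP43 non-targeting samples (−0.46). SMAD7 in hnRNPA1 non-targeting (−0.20) and SMAD9 in hnRNPA1 non-targeting (−0.20) and knockdown samples (−0.14) also changed sign and were called under neither scaling. The cause was not tested.

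Library sizes also changed the number of genes called between fractions, to 16965 from 10483 in untreated neurons (2041 higher and 14924 lower, from 5324 and 5159), to 14532 from 7092 in hnRNPA1 knockdown samples (1155 and 13377, from 3844 and 3248) and to 16427 from 10232 in TDP43 non-targeting samples (1891 and 14536, from 5314 and 4918). The split became 1911 higher and 12129 lower in hnRNPA1 non-targeting samples (from 4657 and 4925) and 2171 and 13565 in TDP43 knockdown samples (from 6310 and 6394). For the TDP43 knockdown, genes called went to 1677 from 4170 in soma, 2580 from 5470 in neurites (1792 higher and 788 lower, from 3075 and 2395), 328 from 2306 in the interaction (130 and 198, from 1278 and 1028) and 3238 from 6444 averaged. For the hnRNPA1 knockdown the split became 494 higher and 719 lower in soma (from 751 and 653), 605 and 3825 in neurites (from 1775 and 1428) and 1071 and 4740 averaged (from 2547 and 2134), and 71 genes were called in the interaction (from 35). The ratio splits became 1990 higher and 14649 lower (from 3937 and 7335) for untreated minus hnRNPA1 controls, 2344 and 12933 (from 4061 and 7416) for untreated minus TDP43 controls, and 1710 and 409 (from 813 and 631) between the control sets, and that of the difference between knockdowns became 875 and 3364 (from 1878 and 2794). Members called with library sizes were 4 in untreated fractions (1 with TMM), 4 in TDP43 non-targeting fractions (2), 0 in TDP43 neurites (2), 0 in the TDP43 interaction (1) and 5 for untreated minus TDP43 controls (3), where the counts of both untreated ratios include BAMBI and SMAD6, which are described only. The 4 in untreated fractions include SMAD6, also described only.

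In the hnRNPA1 interaction DESeq2 called 77 genes, no filter 140 and the replicate block 54. DESeq2 called 1 member for untreated minus hnRNPA1 controls (3 with edgeR). Without the filter 1 member was called between fractions in hnRNPA1 non-targeting and 1 in knockdown samples (2 each). In untreated fractions a filter at 1 CPM left 0 members and the block called 2, which added SMAD6, described only there. The block ended the call of BAMBI in the untreated ratio (−1.27, adjusted p = 0.052). The block changed no other member's call. With limma-voom 2 members were called in TDP43 soma (1) and 1 between control sets (0), the latter being SMAD6, described only. Without the 3 neurite libraries rich in 7SL, 2 were called in TDP43 soma, 1 in TDP43 neurites and 567 genes between control sets (from 1444).

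Leaving out 1 library gave 12 to 73 genes in the hnRNPA1 interaction and 846 to 1657 between control sets. The members called ranged from 0 to 2 in untreated fractions, 1 to 2 in hnRNPA1 soma, TDP43 non-targeting fractions, TDP43 soma and TDP43 neurites, and 1 to 3 for untreated minus hnRNPA1 controls. The 2 in untreated fractions include SMAD6, which is described only. Depth limits ID3, SMAD6 and untreated ID1 and BAMBI, which had few counts.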
